A study of Homo sapiens with 6 samples.

Results

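Mitosis and G2/M genes, the genes whose products carry a cell from the end of DNA replication through division, were followed as a group of 51 named members in MDA-MB-231 cells. The members were chosen by name, as mitotic kinases, kinesins, spindle checkpoint, centromere and other G2/M genes, and were matched to the gene symbols of the count data. All 51 were found among the 24462 symbols, and all 51 were among the 12650 genes with enough counts to be tested. They were sorted by role into 9 genes of the cyclin-CDK1 switch, 5 mitotic kinases and BIRC5, 7 of the spindle checkpoint and the anaphase-promoting complex (APC/C), 6 of the centromere and kinetochore, 7 kinesins, 7 of spindle assembly, 3 of cytokinesis, 5 of chromosome structure and 2 G2/M transcription factors.

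MDA-MB-231 is an established human cell line of triple-negative breast cancer, and RNA was taken 48 h after transfection with Lipofectamine 3000. One group received the negative control (NC) mimic, another the miR-200a mimic at 100 nM, and the last the same mimic at 100 nM together with 30 ng of a pcDNA3.1 plasmid that carries the coding region of the transcription factor ELK3 without its 3′UTR. The samples of the last group are called the ELK3-labelled libraries, for reasons given with the counts of ELK3. Each of the 3 groups had 2 libraries, made with the QuantSeq 3′ kit, which reads each polyadenylated RNA near its 3′ end. Whether the 2 libraries of a group came from separate cultures is not said, so p-values measure only the spread between these samples, which may be technical.

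Entry into mitosis is driven by CDK1 bound to cyclin B, which the phosphatases CDC25B and CDC25C switch on. Aurora and Polo kinases then build the spindle with kinesins and microtubule-binding proteins, the checkpoint kinases hold back the APC/C until every kinetochore is attached, and the APC/C with CDC20 ends mitosis by destroying cyclin B. Most of these genes are transcribed mainly in G2 and M phase, under the DREAM and MuvB complexes with the activators MYBL2 and FOXM1, which act through a promoter element called the cell cycle genes homology region (CHR) and through CCAAT boxes bound by NF-Y.

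The mature strand of the transfected miRNA is shown because its seed (bases 2 to 8, in capitals) sets which 3′UTRs it can pair with. It is given from RefSeq, on GRCh38.p14 at chr1:1167916-1167937, plus strand.
hsa-miR-200a-3p: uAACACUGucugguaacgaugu

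The complement of the seed, CAGTGTT, was searched on the sense strand of the 3′UTR of each gene in the GENCODE 29 annotation of GRCh38. Of the 51 members, 3 (5.88%) held a match, against 2193 of the 11261 tested genes with a 3′UTR (19.5%). The median length of the 3′UTR was 614 bases for the members and 1101 bases for all tested genes, and the share of matches was not adjusted for length. The 3 windows are printed with the match in capitals, from chr20:3805537-3805543 (CDC25B, plus strand), chr2:26793291-26793297 (CENPA, plus strand) and chr3:160434375-160434381 (SMC4, plus strand) for the match itself. A match describes letters and not a working site.
CDC25B: tcctatttCAGTGTTacctgtgt
CENPA: cctgcaccCAGTGTTtctgtcag
SMC4: aattaggaCAGTGTTtcaacaag

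Promoters are shown because the members are known as a set under shared control. RefSeq promoter windows of 300 bases (250 before to 50 after the gene start, GRCh38.p14) were found for 43 of the 51 members, and AURKA, BIRC5, BUB3, FOXM1, RACGAP1, TPX2, TTK and UBE2C had no entry. The core of the CHR (TTTGAA) and the CCAAT box (CCAAT) were searched on both strands. TTTGAA occurred in 30 of the 43 genes (69.8%), and CCAAT in 33 (76.7%). Both occurred in 24 (55.8%). Of all 27305 genes with a window, 18.2% held TTTGAA, 39.7% held CCAAT and 7.26% held both. Of the 44 DNA replication and G1/S genes with a window, 3 (6.82%) held TTTGAA. Within the 100 bases before to 19 bases after the start, TTTGAA was present in 25 of the 43 members (58.1%) and in 6.98% of all genes.

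These 120 bases are printed for 7 members, from 100 before the start, with each CHR core and CCAAT box in capitals (ATTGG is the CCAAT box on the other strand). PLK1, MKI67 and PRC1 passed the threshold in a comparison and hold TTTGAA, CCNB2 is the sister of CCNB1, CENPA is the member on which 2 replicate libraries differed most, and CCNB1 and NEK2 passed and hold CCAAT boxes without TTTGAA. They lie at chr16:23678789-23678908 (PLK1, plus strand), chr10:128126404-128126523 (MKI67, minus strand), chr15:90994516-90994635 (PRC1, minus strand), chr15:59105046-59105165 (CCNB2, plus strand), chr2:26785956-26786075 (CENPA, plus strand), chr5:69167050-69167169 (CCNB1, plus strand) and chr1:211675602-211675721 (NEK2, minus strand).
PLK1: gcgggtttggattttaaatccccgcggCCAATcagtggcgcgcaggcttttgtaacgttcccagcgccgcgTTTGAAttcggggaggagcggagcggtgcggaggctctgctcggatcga
MKI67: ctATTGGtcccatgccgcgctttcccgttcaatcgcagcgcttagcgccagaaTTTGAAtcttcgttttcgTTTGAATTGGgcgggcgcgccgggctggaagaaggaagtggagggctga
PRC1: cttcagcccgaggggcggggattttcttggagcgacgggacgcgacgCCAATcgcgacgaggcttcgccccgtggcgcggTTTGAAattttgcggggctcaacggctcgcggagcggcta
CCNB2: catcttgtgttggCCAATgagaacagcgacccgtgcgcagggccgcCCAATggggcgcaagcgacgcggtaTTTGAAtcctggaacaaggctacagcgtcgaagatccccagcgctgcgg
CENPA: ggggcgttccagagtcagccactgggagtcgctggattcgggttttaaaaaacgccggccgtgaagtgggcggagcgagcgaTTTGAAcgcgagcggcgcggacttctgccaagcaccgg
CCNB1: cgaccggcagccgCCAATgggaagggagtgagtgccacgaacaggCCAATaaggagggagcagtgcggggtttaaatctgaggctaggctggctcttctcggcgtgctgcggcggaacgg
NEK2: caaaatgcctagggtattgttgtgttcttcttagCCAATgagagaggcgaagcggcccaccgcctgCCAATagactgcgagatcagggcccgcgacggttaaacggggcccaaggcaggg

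The CHR core began 29 bases before the start in PLK1 and CCNB2, 20 in PRC1 and 18 in CENPA. In MKI67 it began at 47 and at 29 bases before the start, and the second of these overlaps an ATTGG.

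Total counts per library ranged from 3055915 to 4868004, and 3 counts, taken as the floor, corresponded to at most 0.979 CPM (counts scaled by edgeR's TMM method to libraries of equal size). The mesenchymal gene VIM had 4068 to 11179 counts, and the luminal gene ESR1 was at 0 in all 6 libraries, with PGR at 0 or 1 count. The other mesenchymal genes had at least 465 counts, except SPARC with 0 to 8. Luminal KRT8, KRT18, KRT19 and ERBB2 had 99 to 935 counts, EPCAM and GATA3 14 to 140, and FOXA1 and CDH1 0 to 12. From miR-200a to the ELK3-labelled libraries, KRT18 rose in mean from 138 to 197 CPM. The means of KRT8, KRT19, EPCAM and ERBB2 were lower there. The summed level of 10 luminal genes was 308 and 310.2 CPM with NC mimic, 416 and 417 with miR-200a, then 395 and 414 in the ELK3-labelled libraries. That of 8 mesenchymal genes was 5324 to 5598, 5492 to 5682 and 4164 to 4919 CPM in the same order. From miR-200a to the ELK3-labelled libraries, the means of VIM, CD44, CAV1, TGFBI and MSN were lower. The means of AXL (767 to 896 CPM) and S100A4 (704 to 793 CPM) were higher, and SPARC stayed near the floor. Whether these shifts have a part in the results below was not tested. ELK3 itself, which the plasmid carries, had 618 and 509 counts with NC mimic, 493 and 505 with miR-200a, then 406 and 337 in the ELK3-labelled libraries. It was thus not higher in the libraries assigned to the plasmid. The plasmid lacks the 3′UTR of ELK3, the reads come from near the 3′ end and the counting is not described, so RNA from the plasmid may not have been counted as ELK3. These counts therefore cannot check the label either way, and the samples are named here by it. In the paper, ELK3 mRNA by quantitative RT-PCR and ELK3 protein returned to the control level in MDA-MB-231 cells given both. Whether that RNA came from the cultures sequenced here is not said.

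The 2 ELK3-labelled libraries differed from each other more than other replicates did. The chi-square of the counts per degree of freedom, near 1 under sampling noise alone, was 14.1 in this group, 2.42 with NC mimic and 1.90 with miR-200a. Over the 51 members, the median absolute log2 ratio between the 2 libraries of a group was 0.23 in this group, 0.11 with NC mimic and 0.085 with miR-200a. Over 8793 genes with a mean level at or above that of the lowest member, these medians were 0.29, 0.14 and 0.11. The results on this group therefore come below both with and without each of its libraries.

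All 51 members were detected in every library, from 23 counts for CENPA to 11442 counts for TOP2A, both in ELK3-labelled replicate 2. The summed level of the members was 10213 and 10194 CPM with NC mimic, 9402 and 9463 with miR-200a, then 11346 and 12184 in the ELK3-labelled libraries. The miR-200a libraries lay below both others, the ELK3-labelled libraries lay above, and no groups overlapped on this sum. Abundant genes weigh most in it. TOP2A alone gave 1823 and 2689 CPM in the ELK3-labelled libraries and 1669 and 1537 with NC mimic. Summed by role, both ELK3-labelled libraries lay above all others except in kinesins, spindle checkpoint and APC/C, and cytokinesis. The kinesins summed to 482 and 430 CPM there, 483 and 493 with NC mimic, and 450 and 443 with miR-200a. In bulk RNA, fewer cells in G2 and M phase and less mitotic RNA per cell cannot be told apart. A miR-200a library was the lowest of the 6 for 26 of the 51 members, and an ELK3-labelled library was the highest for 35. ELK3-labelled replicate 2 was also the lowest for 15 members. Of all genes tested, 33.0% had ELK3-labelled replicate 1 above the 4 libraries of the other groups, and 34.8% had replicate 2 above. Both were above in 21.5%. The share of all genes with a miR-200a library lowest was not computed.

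**Figure D1:**
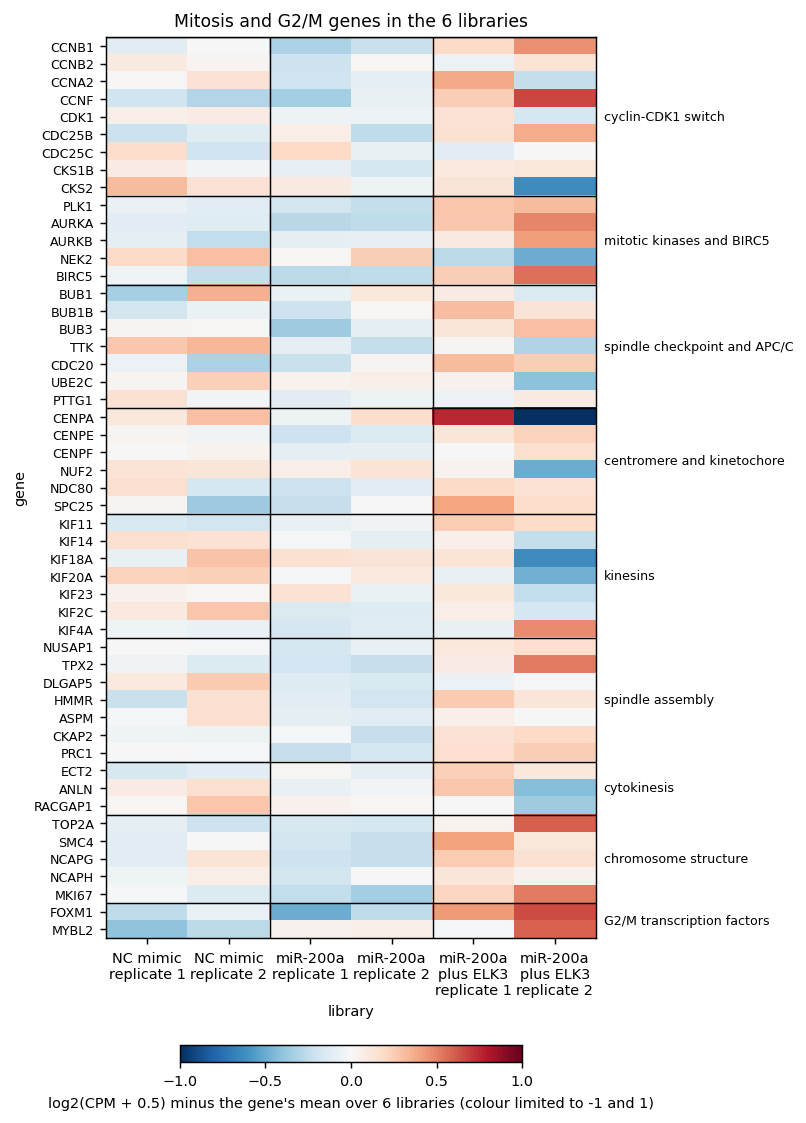
Each row is a member, grouped by role, and each column a library. Colour is log2(CPM + 0.5) minus the mean of the gene over the 6 libraries, limited to -1 and 1, with red above and blue below that mean. The 2 miR-200a columns are mostly pale blue, the 2 ELK3-labelled columns are mostly red but part at CENPA, ANLN, CCNA2, CKS2 and KIF18A.

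The question of the first comparison was what the miR-200a mimic did to these genes. No member passed the threshold (adjusted p under 0.05, edgeR's quasi-likelihood test with Benjamini-Hochberg adjustment) between miR-200a and the NC mimic. Over all genes tested, 0.269% passed (0.213% higher and 0.0553% lower). The log2 fold change was negative for 39 members and positive for 12, where 47.2% of all genes were positive, with a median of -0.13 against -0.019 over all tested genes. By DESeq2 and by limma 0 members passed as well. At an unadjusted p under 0.05 there was 1 member by edgeR, 0 by DESeq2 and 1 by limma. Of all genes, 9.24% had such a p by edgeR (5.13% higher and 4.11% lower). These counts depended on the third group in the model. With an edgeR model of these 2 groups alone, 7.89% of all genes passed and still 0 members. In that model 13 members had an unadjusted p under 0.05. The groups did not overlap for 28 members that were lower and 3 that were higher (KIF11, ECT2 and MYBL2), where 26.1% of all genes were lower, 22.9% higher and 48.9% either without overlap.

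TTK, the kinase that starts spindle checkpoint signalling, was the member with the edgeR unadjusted p under 0.05 in the fit of all 6 libraries. It stood at 45.4 and 47.3 CPM with NC mimic and at 35.3 and 31.8 CPM with miR-200a. The pairs did not overlap, at a log2 fold change of -0.47 (standard error, SE, 0.18, edgeR adjusted p = 0.48). TTK is among the members with no CAGTGTT match. The 3 members with a match had log2 fold changes of 0.084 for CDC25B, -0.13 for CENPA and -0.15 for SMC4, with edgeR adjusted p of 0.935, 0.972 and 0.783.

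The next comparison asked what changed when the ELK3 plasmid was added to miR-200a. No empty plasmid is named for the other groups. ELK3 and the added plasmid DNA therefore cannot be told apart in either comparison of the ELK3-labelled libraries. Against miR-200a, 9 of the 51 members were higher in the ELK3-labelled libraries, and 0 were lower. They were CCNB1, PLK1, AURKA, BIRC5, TPX2, PRC1, SMC4, MKI67 and FOXM1. The share of members higher was 17.6% in this comparison, where 7.03% of all genes tested passed as higher, 5.91% as lower and 12.9% in either direction. The median log2 fold change of the members was 0.26, against 0.016 over all tested genes, and 39 of the 51 were positive, as were 51.2% of all genes. Of the members, 31 were higher without overlap and 4 lower without overlap (NEK2, NUF2, KIF20A and RACGAP1), where 30.2% of all genes were higher, 28.0% lower and 58.2% either without overlap. At an unadjusted p under 0.05, 18 members were higher and 1, NEK2, was lower, against 16.5% and 14.1% of all genes (30.6% in either direction).

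The 9 calls rested on the number and choice of libraries. Without replicate 1 or without replicate 2 of the NC mimic 3 members passed (AURKA, FOXM1 and MKI67), without either replicate of miR-200a 0 passed (10 and 12 at an unadjusted p under 0.05), and without replicate 1 or 2 of the ELK3-labelled libraries 28 and 16 passed. In each such fit the group left with 1 library is taken to vary like the other groups. Of all genes, 35.7% and 22.1% passed in these last fits, against 54.9% and 31.4% of the members. The 28 were 21 higher and 7 lower (ANLN, CENPA, CKS2, KIF20A, NEK2, NUF2 and UBE2C), and the 16 were 15 higher and 1 lower (NEK2). The 9 were among the higher ones in both, while ANLN was among the lower in the first and among the higher in the second. By DESeq2 7 members passed, and by limma on quantile-normalized log2(count + 1) 0 (11 at an unadjusted p under 0.05). With a model of the 2 compared groups alone 3 passed. These were 13.7%, 0% and 5.88% of the members, where 11.4%, 0.846% and 4.38% of all genes passed. Over the 13 alternative analyses, AURKA, MKI67 and FOXM1 passed in 10, CCNB1 and BIRC5 in 7, PLK1 in 6, SMC4 in 5, and TPX2 and PRC1 in 4.

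Against the NC mimic, 4 members were higher (AURKA, BIRC5, MKI67 and FOXM1) and 1 was lower (NEK2) in the ELK3-labelled libraries. Over all genes tested, 6.92% were higher, 5.95% were lower and 12.9% passed in either direction, against 9.80% of the members. The median log2 fold change was 0.16 for the members and 0.011 for all tested genes, and 31 of the 51 were positive, as were 50.9% of all genes. The groups did not overlap for 25 higher and 9 lower members, against 56.7% of all genes either way (27.6% lower). At an unadjusted p under 0.05, 16 members were higher and 3 lower, against 16.2% and 14.5% of all genes (30.6% in either direction). This comparison shares its libraries with the previous one, so the values are given side by side for each gene and not as independent evidence. Without either replicate of the NC mimic or of miR-200a 0 members passed (10 and 6, and 15 and 15, at an unadjusted p under 0.05), and without replicate 1 or 2 of the ELK3-labelled libraries 29 and 12 passed. These were 18 higher and 11 lower, and 11 higher and 1 lower. They were 56.9% and 23.5% of the members, where 35.6% and 22.3% of all genes passed in the same fits, so the second share was near that of all genes. By DESeq2 3 passed (5.88% of the members), and by limma 0 (9 at an unadjusted p under 0.05). With a model of the 2 compared groups alone 0 passed (15 at an unadjusted p under 0.05). Of all genes, 10.8%, 3.09% and 4.79% passed in these fits, in the same order. Over the 13 alternative analyses, FOXM1 passed in 7, AURKA and NEK2 in 6, BIRC5 in 4 and MKI67 in 3.

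**Figure D2:**
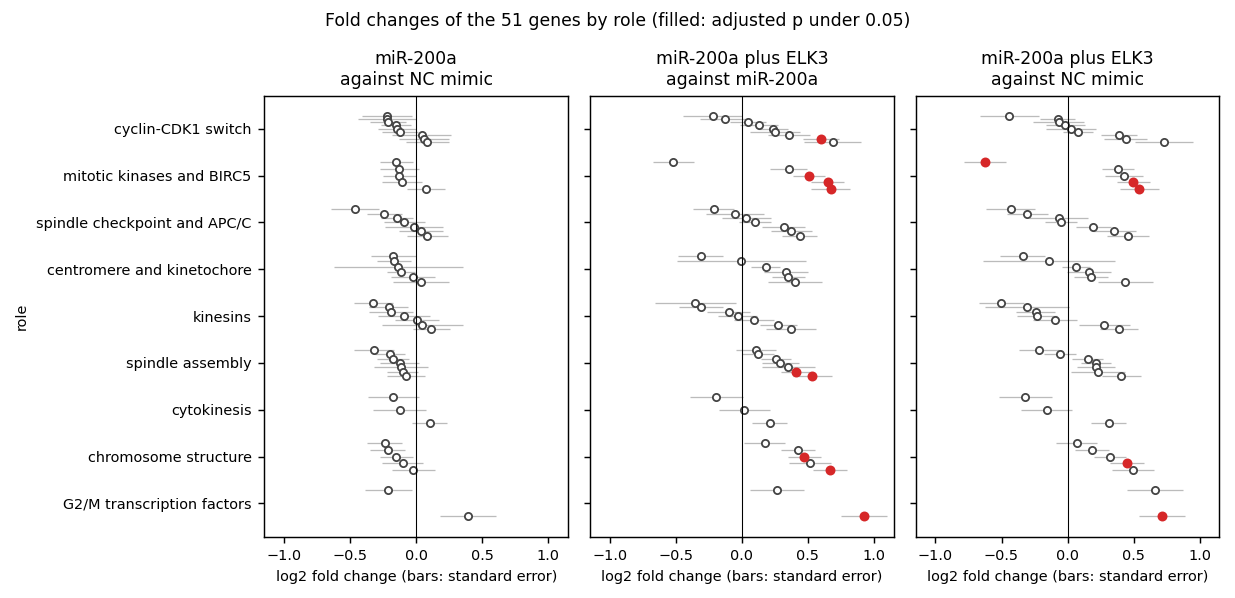
Log2 fold change (horizontal axis, with standard errors as bars) of the 51 members by role in the 3 comparisons. Filled red points have an adjusted p under 0.05, 0 in the left panel, 9 in the middle and 5 on the right. Kinesins straddle 0 in the middle panel, while all 5 chromosome structure genes and all 7 spindle assembly genes lie above it.

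Of the G2/M transcription factors, FOXM1, a forkhead activator of mitotic genes, had the largest log2 fold change of the 51 members against miR-200a. FOXM1 stood at 39.2 and 44.7 CPM with NC mimic, 33.0 and 39.1 with miR-200a, then 63.0 and 74.0 in the ELK3-labelled libraries. Both of the last lay above all 4 other libraries, while miR-200a replicate 2 reached the level of NC mimic replicate 1. Mean levels were 41.9 ± 3.89, 36.1 ± 4.32 and 68.5 ± 7.80 CPM (SD, n = 2 each). FOXM1 was 1.90-fold higher against miR-200a, a log2 fold change of 0.92 (SE 0.17, edgeR adjusted p = 0.0106). Against the NC mimic the value was 0.71 (SE 0.17, edgeR adjusted p = 0.0272), and between miR-200a and the NC mimic it was -0.21 (SE 0.18, edgeR adjusted p = 0.791).

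MYBL2, the B-Myb activator that joins MuvB at CHR promoters, stood at 34.3 and 37.5 CPM with NC mimic, 46.7 and 47.5 with miR-200a, then 44.8 and 68.6 in the ELK3-labelled libraries. Here the miR-200a libraries lay above the NC mimic libraries, and the last pair lay on both sides of them. MYBL2 had log2 fold changes of 0.39 (SE 0.21, edgeR adjusted p = 0.637) for miR-200a against NC mimic, 0.27 (SE 0.20, edgeR adjusted p = 0.407) for the ELK3-labelled libraries against miR-200a, and 0.66 (SE 0.21, edgeR adjusted p = 0.0659) against NC mimic. Without replicate 2 of the ELK3-labelled libraries, the second of these was -0.10.

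Of the cyclin-CDK1 switch, 1 of 9 members passed against miR-200a and 0 against NC mimic (3 at an unadjusted p under 0.05, with 0 by DESeq2 and by limma). CCNB1, cyclin B1, stood at 172 and 186 CPM with NC mimic, 149.9 and 159.7 with miR-200a, then 213 and 256 in the ELK3-labelled libraries. The 3 groups were fully apart, with miR-200a lowest. CCNB1 had a log2 fold change of 0.60 (SE 0.14, edgeR adjusted p = 0.0209) against miR-200a and 0.39 (SE 0.14, edgeR adjusted p = 0.086) against NC mimic. For miR-200a against NC mimic it was -0.21 (SE 0.14, edgeR adjusted p = 0.716).

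CDK1, the kinase that cyclin B activates, did not pass in any comparison of the 6 libraries. CDK1 stood at 253 and 256 CPM with NC mimic, 235 and 233 with miR-200a, then 268 and 215 in the ELK3-labelled libraries, whose 2 values enclose all others. CDK1 had log2 fold changes of -0.12 (edgeR adjusted p = 0.853), 0.046 (edgeR adjusted p = 0.845) and -0.076 (edgeR adjusted p = 0.74) in the order of the 3 comparisons, each with a SE of 0.13. The second of these had the other sign under upper-quartile normalization, at -0.023. CCNB2, cyclin B2, had means of 113 ± 3.43, 102 ± 11.3 and 112 ± 10.7 CPM (SD, n = 2 each). Its miR-200a libraries, at 93.8 and 109.8 CPM, lay just below the NC mimic libraries, at 115.1 and 110.3. The ELK3-labelled libraries overlapped both groups.

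CDC25B, a phosphatase that activates CDK1 in G2, stood at 79.9 and 85.5 CPM with NC mimic, 97.2 and 78.0 with miR-200a, then 103 and 121 in the ELK3-labelled libraries. Its last pair lay above the rest. CDC25B had log2 fold changes of 0.084 (edgeR adjusted p = 0.935), 0.35 (edgeR adjusted p = 0.159) and 0.44 (edgeR adjusted p = 0.095) in the same order, each with a SE of 0.16. Its paralog CDC25C did not separate the groups, at 34.9 to 46.1 CPM over all 6 libraries. CCNF, cyclin F, a substrate receptor of an SCF ubiquitin ligase, stood at 20.8 to 25.1 CPM in the 4 libraries without the plasmid and at 31.5 and 42.3 in those labelled with it. CKS1B and CKS2, the small subunits bound to CDK1, parted in replicate 2 of the last group, where CKS1B was at 356 CPM beside 352 in replicate 1, and CKS2 at 40.4 beside 68.7.

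The mitotic kinases and BIRC5 had the highest share of calls of the roles with more than 2 members, with 3 of 5 higher against miR-200a, and 2 higher and 1 lower against NC mimic. PLK1, the Polo kinase of centrosome maturation and mitotic entry, stood at 148 and 144 CPM with NC mimic, 136 and 131 with miR-200a, then 188 and 192 in the ELK3-labelled libraries. These pairs were tight and apart, with SDs of 3.04, 3.66 and 3.31 CPM. PLK1 had a log2 fold change of 0.51 (SE 0.12, edgeR adjusted p = 0.0249) against miR-200a, 0.38 (SE 0.12, edgeR adjusted p = 0.0664) against NC mimic, and -0.13 (SE 0.12, edgeR adjusted p = 0.823) for miR-200a against NC mimic.

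AURKA, the Aurora kinase of the spindle poles, stood at 218 and 217 CPM with NC mimic, 194 and 197 with miR-200a, then 283 and 330.0 in the ELK3-labelled libraries. Again miR-200a was lowest and the ELK3-labelled libraries highest, with no overlap. AURKA rose against miR-200a by a log2 fold change of 0.65 (SE 0.12, edgeR adjusted p = 0.0117) and against NC mimic by 0.50 (SE 0.12, edgeR adjusted p = 0.0298). Between miR-200a and the NC mimic its value was -0.15 (SE 0.13, edgeR adjusted p = 0.783). AURKB, the Aurora kinase of the chromosomal passenger complex, stood at 149 to 167 CPM in the 4 libraries without the plasmid and at 188 and 236 in those labelled with it, and it did not pass the threshold, but it did against NC mimic without the filter on low counts and in both comparisons without replicate 1 of the last group.

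BIRC5, survivin, the partner of AURKB in the passenger complex, stood at 127 and 111 CPM with NC mimic, 109 and 109.6 with miR-200a, then 156 and 192 in the ELK3-labelled libraries. The last pair lay above the rest. BIRC5 rose against miR-200a by 0.67 (log2, SE 0.15, edgeR adjusted p = 0.0181) and against NC mimic by 0.54 (SE 0.15, edgeR adjusted p = 0.0379), with -0.13 (SE 0.15, edgeR adjusted p = 0.862) for miR-200a against NC mimic.

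NEK2, the kinase that parts the centrosomes at mitotic entry, went the other way from the other 4 of its role. NEK2 stood at 89.7 and 96.9 CPM with NC mimic, 79.7 and 93.3 with miR-200a, then 65.1 and 55.7 in the ELK3-labelled libraries. Both of the last lay below all 4 other libraries. NEK2 fell by 0.63 on the log2 scale against NC mimic (SE 0.16, edgeR adjusted p = 0.0299). Against miR-200a the value was -0.52 (SE 0.16, edgeR adjusted p = 0.0537), just outside the threshold, and for miR-200a against NC mimic -0.11 (SE 0.15, edgeR adjusted p = 0.901). Against miR-200a, NEK2 passed in 5 of the 13 alternative analyses and had a negative value in all of them, from -0.65 to -0.40.

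**Figure D3:**
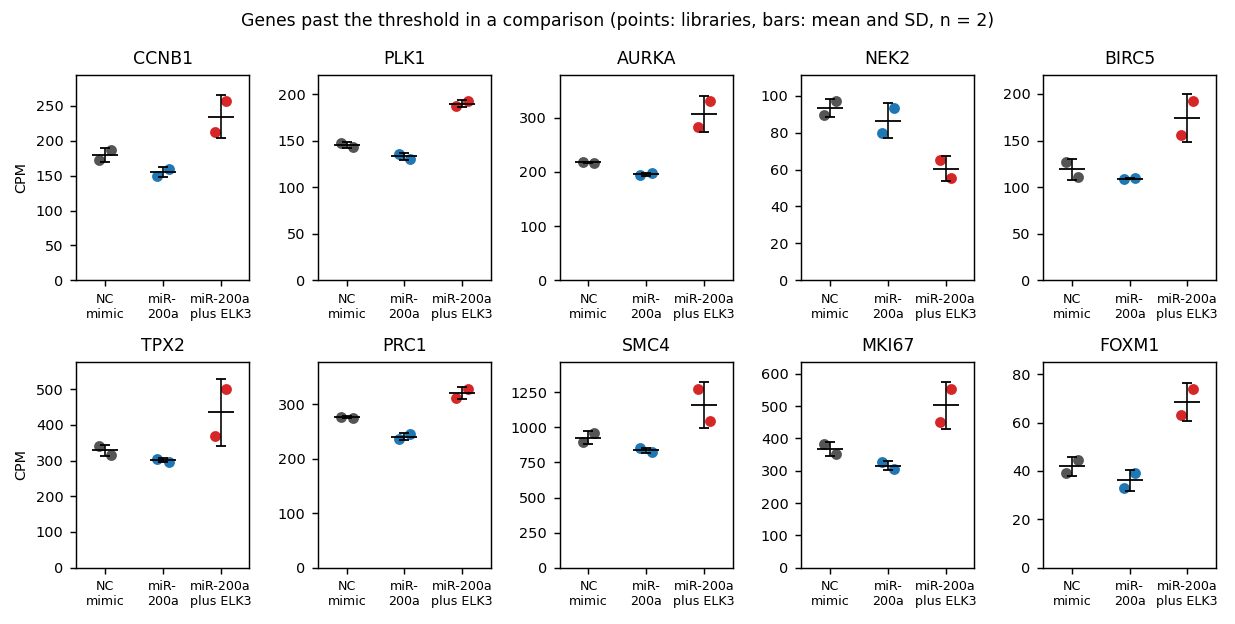
CPM (vertical axis, from 0) of the 10 members past the threshold in a comparison, for the NC mimic, miR-200a and the ELK3-labelled libraries. Points are libraries, and bars give the mean and SD of 2. In all panels except NEK2 the 2 red points lie above the 4 others, and in NEK2 they lie below.

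With all 6 libraries and the filter on low counts, no member of the spindle checkpoint and APC/C passed in any comparison by edgeR, nor by DESeq2 or limma, and 2 of 7 had an edgeR unadjusted p under 0.05 against miR-200a. BUB3 passed against miR-200a without the filter and without either ELK3-labelled library, and BUB1B, CDC20, TTK and UBE2C passed in a comparison only when one of those libraries was left out. BUB1, a checkpoint kinase of the kinetochore, was the least certain, at 39.0 and 63.0 CPM in the 2 NC mimic libraries, 46.9 and 52.8 with miR-200a, then 51.9 and 44.4 in the ELK3-labelled libraries. Its NC mimic values enclosed all others. BUB1 had log2 fold changes of -0.016 (edgeR adjusted p = 0.991), -0.051 (edgeR adjusted p = 0.901) and -0.067 (edgeR adjusted p = 0.871), each with a SE of 0.22.

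CDC20, the activator of the APC/C at anaphase, stood at 84.4 and 70.5 CPM with NC mimic, 75.2 and 89.5 with miR-200a, then 109 and 104 in the ELK3-labelled libraries, above the rest. CDC20 had log2 fold changes of 0.084 (edgeR adjusted p = 0.934), 0.38 (edgeR adjusted p = 0.133) and 0.46 (edgeR adjusted p = 0.08) in the order of the 3 comparisons, with SEs of 0.16, 0.15 and 0.16. UBE2C, the E2 enzyme of the APC/C, stood at 394 and 457 CPM, 397 and 403, and 398 and 291 in the order of the groups. Only replicate 2 of the ELK3-labelled libraries was apart, below the other 5. UBE2C had log2 fold changes of -0.090 (edgeR adjusted p = 0.927), -0.21 (edgeR adjusted p = 0.38) and -0.30 (edgeR adjusted p = 0.213), with SEs of 0.15, 0.15 and 0.16.

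The other checkpoint genes split. BUB1B (BubR1) and BUB3, subunits of the mitotic checkpoint complex, lay above all 4 other libraries in both ELK3-labelled libraries, at 68.7 and 60.6 CPM and at 319 and 361 CPM. TTK stayed near its miR-200a level there, at 38.4 and 30.3 CPM. PTTG1, securin, which holds separase inactive until anaphase, ranged from 414 to 496 CPM. Its miR-200a libraries, at 414 and 431 CPM, lay below the NC mimic libraries, at 496 and 439. The ELK3-labelled libraries overlapped both groups.

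With all 6 libraries no gene of the centromere and kinetochore passed in any comparison by edgeR, DESeq2 or limma, with 1 of 6, CENPE, at an edgeR unadjusted p under 0.05 against miR-200a. Without ELK3-labelled replicate 1, CENPE and CENPF passed as higher and CENPA and NUF2 as lower against miR-200a. CENPF, a large protein of the outer kinetochore, stood at 1000.4 and 1031 CPM with NC mimic, 938 and 939.5 with miR-200a, then 1005 and 1120.3 in the ELK3-labelled libraries. The miR-200a pair was lowest, and the other pairs overlapped. CENPF had log2 fold changes of -0.11 (edgeR adjusted p = 0.818), 0.18 (edgeR adjusted p = 0.292) and 0.065 (edgeR adjusted p = 0.721), each with a SE of 0.11.

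CENPA, the histone H3 variant that marks the centromere, was where the replicates differed most. CENPA had 101 counts in replicate 1 and 23 in replicate 2 of the ELK3-labelled libraries, or 23.9 and 5.41 CPM, while the 4 other libraries held 13.5 to 17.3 CPM. One library was thus above and the other below all others, and the group mean of 14.7 ± 13.1 CPM (SD, n = 2) lies between them. CENPE, the plus-end motor of the kinetochore, stood at 147 and 159 CPM there and at 118 to 138 CPM in the 4 others. NUF2, NDC80 and SPC25 belong to one complex and lay on different sides of the other groups. NUF2 was at 134 and 92.6 CPM, below the 4 other libraries, while NDC80 was at 61.1 and 59.0 and SPC25 at 39.5 and 33.8 CPM, near or above their highest.

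The kinesins were the role with a median log2 fold change below 0 against miR-200a, at -0.032, where 3 were positive and 4 negative. With all 6 libraries none of 7 passed in any comparison by edgeR, DESeq2 or limma, and 0, 0 and 2 had an edgeR unadjusted p under 0.05 in the order of the comparisons. Without ELK3-labelled replicate 1, KIF4A passed as higher and KIF20A as lower against miR-200a. KIF20A, the motor of the central spindle, stood at 81.3 and 81.6 CPM with NC mimic, 68.3 and 74.2 with miR-200a, then 65.6 and 49.4 in the ELK3-labelled libraries. The 3 pairs did not overlap and stepped down in this order. KIF20A had log2 fold changes of -0.19 (edgeR adjusted p = 0.798) for miR-200a against NC mimic, -0.31 (edgeR adjusted p = 0.243) for the ELK3-labelled libraries against miR-200a and -0.50 (edgeR adjusted p = 0.0775) against NC mimic, each with a SE of 0.17.

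KIF11, the motor that pushes the spindle poles apart, was the kinesin with both ELK3-labelled libraries above all 4 others, at 85.0 and 80.8 CPM against 62.6 to 69.3. KIF4A, a chromosome-bound motor, was at 73.1 CPM in replicate 2 and at 46.9 to 51.2 in the 5 other libraries. KIF18A, which shortens kinetochore microtubules, was at 13.5 and 7.76 CPM, and KIF14, KIF23 and KIF2C were also below all 4 other libraries in replicate 2 and within their range in replicate 1.

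All 7 spindle assembly genes had a negative log2 fold change with miR-200a (median -0.13) and a positive one in the ELK3-labelled libraries against miR-200a (median 0.29), where the groups of all 7 did not overlap and 2 passed. TPX2, which activates AURKA on the spindle, stood at 339.8 and 317 CPM with NC mimic, 305 and 297 with miR-200a, then 369 and 501 in the ELK3-labelled libraries. The last pair was highest but far apart, at a mean of 435 ± 93.2 CPM (SD, n = 2). TPX2 had a log2 fold change of 0.53 (SE 0.15, edgeR adjusted p = 0.042) against miR-200a, 0.41 (SE 0.15, edgeR adjusted p = 0.0963) against NC mimic, and -0.13 (SE 0.15, edgeR adjusted p = 0.869) for miR-200a against NC mimic.

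PRC1, which bundles the microtubules of the central spindle, stood at 277 and 275 CPM with NC mimic, 236 and 245 with miR-200a, then 312 and 329 in the ELK3-labelled libraries, with the groups apart. PRC1 rose against miR-200a by a log2 fold change of 0.41 (SE 0.11, edgeR adjusted p = 0.0411), and its value against NC mimic was 0.21 (edgeR adjusted p = 0.235). NUSAP1 and CKAP2, which bind spindle microtubules, also lay above all 4 other libraries in both. DLGAP5 (HURP) and ASPM were above miR-200a there, at 53.5 and 55.2 CPM and at 273 and 263 CPM, but not above the NC mimic, whose levels were 59.7 and 66.9 CPM and 263 and 296 CPM.

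All 5 genes of chromosome structure were positive against miR-200a (median log2 fold change 0.47) without overlap, and 2 passed. MKI67 (Ki-67), the coat protein of mitotic chromosomes and a marker of proliferating cells, stood at 382 and 353 CPM with NC mimic, 326 and 306 with miR-200a, then 450.2 and 554 in the ELK3-labelled libraries. Each pair was apart from the next. MKI67 rose by 0.67 (log2, SE 0.13, edgeR adjusted p = 0.0133) against miR-200a and by 0.45 (SE 0.13, edgeR adjusted p = 0.0493) against NC mimic, and it had -0.22 (SE 0.13, edgeR adjusted p = 0.69) for miR-200a against NC mimic. The call against NC mimic was close to the threshold and was lost under upper-quartile scaling, a filter of 10 counts in every library, limma, DESeq2, the replicate block and the 2 groups alone, and without either replicate of the NC mimic or of miR-200a.

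SMC4, a core subunit of condensin, stood at 895 and 961 CPM, 850.0 and 822, and 1276 and 1043 in the order of the groups, all 3 pairs apart. SMC4 rose against miR-200a by a log2 fold change of 0.47 (SE 0.12, edgeR adjusted p = 0.0339), and its value against NC mimic was 0.32 (edgeR adjusted p = 0.108). NCAPG, its condensin I partner, lay above the rest at 228 and 213 CPM, and NCAPH at 63.5 and 60.2 CPM beside 51.5 to 61.3.

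TOP2A, topoisomerase II alpha, which untangles sister DNA, stood at 1669 and 1537 CPM with NC mimic, 1586 and 1573 with miR-200a, then 1823 and 2689 in the ELK3-labelled libraries. The last value alone was far from the others. TOP2A had log2 fold changes of -0.021 (edgeR adjusted p = 0.987), 0.51 (edgeR adjusted p = 0.0595) and 0.49 (edgeR adjusted p = 0.0688) in the order of the 3 comparisons, each with a SE of 0.16.

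The 3 cytokinesis genes showed 3 patterns. ECT2, the exchange factor that activates RhoA at the cleavage site, was highest in the ELK3-labelled libraries, at 156 and 142 CPM against 118 to 133. RACGAP1, a subunit of centralspindlin, was lowest there, at 31.0 and 24.0 CPM against 31.2 to 37.5. ANLN, the ring scaffold anillin, was at 257 CPM in replicate 1 and 158 in replicate 2, on both sides of the 4 others (202 to 238). With all 6 libraries none passed in any comparison by edgeR, DESeq2 or limma, and 1, ECT2, had an edgeR unadjusted p under 0.05 against NC mimic. Without replicate 2 of the ELK3-labelled libraries, ECT2 passed against NC mimic and ANLN passed as higher against miR-200a, and without replicate 1 ANLN passed as lower in both comparisons.

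Set library by library, 24 members lay above all 4 other libraries in both ELK3-labelled libraries, and 4 lay below in both (NEK2, NUF2, KIF20A and RACGAP1), where 21.5% of all genes tested lay above and 19.3% below in both. Replicate 1 was above the 4 others in 31 members and below in 4, against 33.0% and 29.1% of all genes. Replicate 2 was above in 28 and below in 15, against 34.8% and 35.0% of all genes. In CCNA2, CDK1, CENPA and ANLN, replicate 1 was above and replicate 2 below, as in 4.89% of all genes. CCNA2, cyclin A2, for example stood at 147 CPM in replicate 1 and 95.9 in replicate 2, with 98.4 to 125 CPM elsewhere. In 7 members (CKS2, TTK, UBE2C, KIF14, KIF18A, KIF23 and KIF2C) replicate 2 alone was below, as in 10.8% of all genes. The log2 ratio of replicate 2 to replicate 1 ran from -2.15 (CENPA) to 0.62 (MYBL2), with 9 members over 0.5 in size, against 1 with NC mimic and 0 with miR-200a. Of all genes at the members' levels, 25.6%, 5.73% and 3.13% were over 0.5 in the same order. What sets these 2 libraries apart was not tested.

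**Figure D4:**
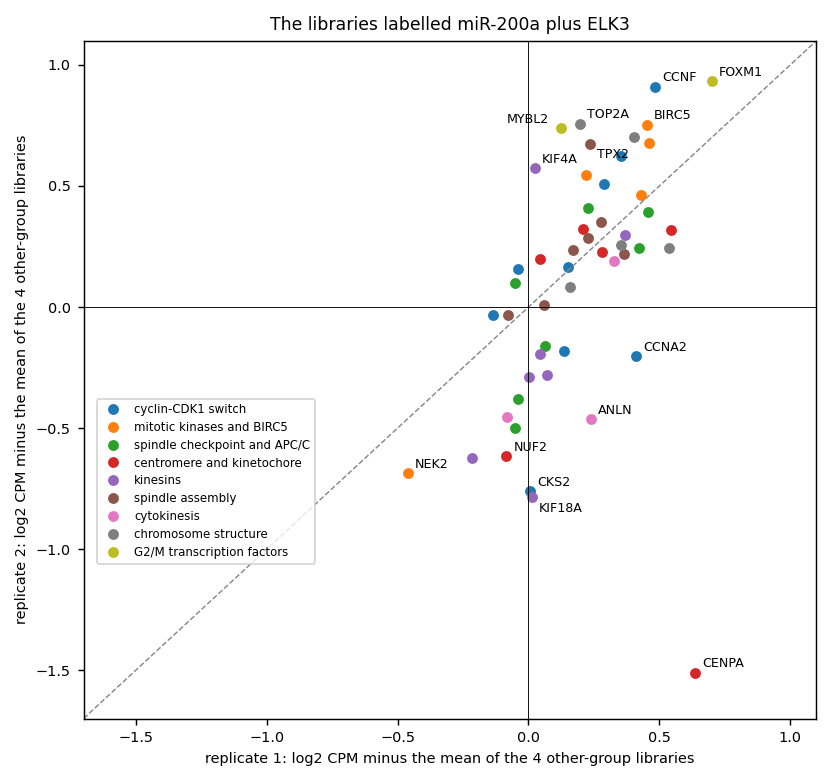
Level of each member in replicate 1 (horizontal axis) and replicate 2 (vertical axis) of the ELK3-labelled libraries, as log2 CPM minus the mean of the 4 libraries of the other groups, coloured by role. On the dashed line both replicates are equal. FOXM1 and CCNF are at the upper right and NEK2 at the lower left, while CENPA is far off the line, with KIF18A, CKS2, ANLN and CCNA2 below it and KIF4A, TOP2A and MYBL2 above it.

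The members were also set side by side by the CHR core in the promoter window. The median log2 fold change against miR-200a was 0.24 for the 30 members with TTTGAA and 0.25 for the 13 without, with 4 and 1 past the threshold. Against the NC mimic the medians were 0.16 and 0.068, and for miR-200a against NC mimic -0.12 and -0.11. For the 8 members with no promoter entry the median against miR-200a was 0.49, with 4 past the threshold. These are descriptions of promoter letters, without a test.

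Other cell cycle genes were read from 3 lists. Of 88 other mitosis genes, 87 were tested. In this list 0 passed for miR-200a against NC mimic (6 at an unadjusted p under 0.05), 13 were higher and 0 lower against miR-200a, and 9 were higher and 1 lower against NC mimic. These were 14.9% and 11.5% of the list, near the 12.9% of all genes called in either direction in both comparisons, while 7.03% and 6.92% of all genes were called as higher. The medians of the log2 fold change were -0.094, 0.25 and 0.14. TUBB4B, a beta tubulin, had 2016 and 2075 counts with miR-200a and 2428 and 4387 in the ELK3-labelled libraries, with a log2 fold change of 0.93 (SE 0.22, edgeR adjusted p = 0.0222). POC1A, a centriole protein, followed at 0.90 (SE 0.19, edgeR adjusted p = 0.0163). Against the NC mimic, SMC2, the condensin partner of SMC4, rose by 0.95 (log2, edgeR adjusted p = 0.00192) and PKMYT1, an inhibitory kinase of CDK1, by 0.92 (edgeR adjusted p = 0.0197), while ARL6IP1 fell by 0.73 (edgeR adjusted p = 0.0291).

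Of the 51 DNA replication and G1/S genes, 0 passed for miR-200a against NC mimic (5 at an unadjusted p under 0.05), 21 were higher and 0 lower against miR-200a, and 14 were higher and 0 lower against NC mimic, or 41.2% and 27.5% of the list. The medians were -0.19, 0.61 and 0.37, each farther from 0 than the -0.13, 0.26 and 0.16 of the mitosis members, and this difference was not tested. CCNE1, cyclin E1, had 31 and 42 counts with miR-200a and 89 and 99 in the ELK3-labelled libraries, with a log2 fold change of 1.56 (SE 0.26, edgeR adjusted p = 0.00658). MCM10, a replication initiation factor, followed at 1.47 (SE 0.18, edgeR adjusted p = 0.00236). Against the NC mimic, GINS2, a subunit of the replicative helicase, and CDC25A, the CDC25 of the G1/S step, both rose 2.14-fold (edgeR adjusted p = 0.0287 and 0.00567).

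Of 24 cell-cycle transcription controllers and inhibitors, 1 was higher with miR-200a than with NC mimic, 3 were lower in the ELK3-labelled libraries against miR-200a, and 3 were lower against NC mimic, or 12.5% of the list in each of the last 2, near the share of all genes called in either direction. CDKN1C (p57), an inhibitor of cyclin-CDK complexes, had 91 and 72 counts with NC mimic, 274 and 248 with miR-200a, then 128 and 105 in the ELK3-labelled libraries. It was high in the miR-200a libraries alone. CDKN1C rose with miR-200a by a log2 fold change of 1.30 (SE 0.19, edgeR adjusted p = 0.0328) and fell by 0.97 against it in the ELK3-labelled libraries (SE 0.19, edgeR adjusted p = 0.0122). E2F7, a repressor of E2F targets, fell by 0.74 against miR-200a (edgeR adjusted p = 0.0419) and by 1.03 against NC mimic (edgeR adjusted p = 0.0129), and CDKN2D (p19), an inhibitor of CDK4 and CDK6, fell by 0.62 against NC mimic (edgeR adjusted p = 0.0432).

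**Figure D5:**
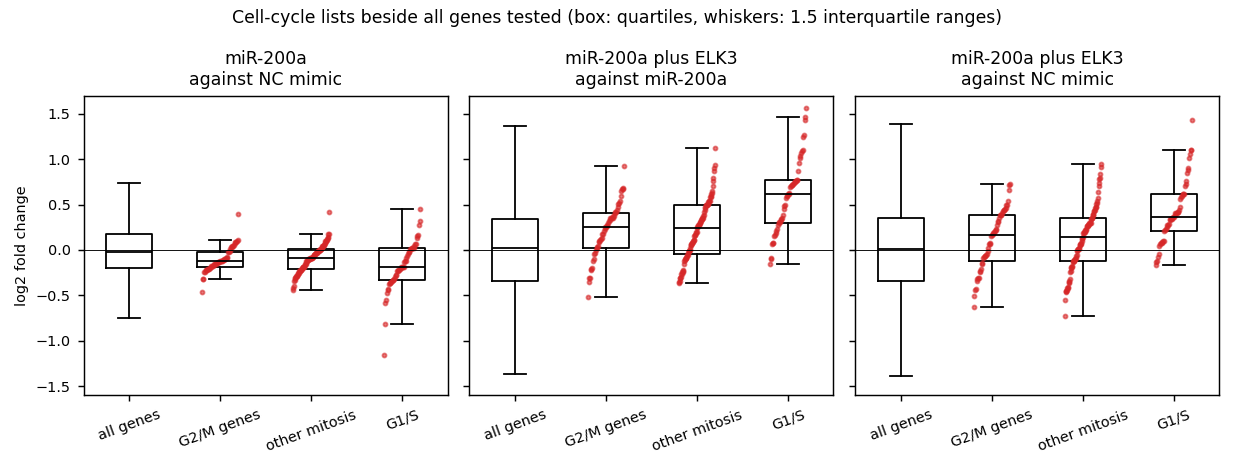
Log2 fold change (vertical axis) of all 12650 tested genes, the 51 G2/M members, 87 other mitosis genes and 51 G1/S genes in the 3 comparisons. Boxes are quartiles with the median, whiskers reach 1.5 interquartile ranges, and red points are single genes of the lists. In the middle panel the G1/S box lies highest, and the boxes of both mitosis lists lie partly above that of all genes.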

How the data were processed

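RNA of MDA-MB-231 cells in 3 groups of 2 libraries was measured by QuantSeq 3′ mRNA sequencing. The deposited values are the raw counts of each library by gene symbol, which the authors had not normalized. The submitters' processing notes name Bowtie2, edgeR and hg19, and the paper names ExDEGA. The counting program, its annotation and its strand setting are not given in the sources used here, so antisense partners cannot be told apart from a gene. Each library has 25737 lines, and the 286 symbols on several lines were summed to give 24462. Genes with few counts were dropped by filterByExpr (minimum count 10), which left 12650 genes. Groups were compared in R 4.3.3 with edgeR 4.0.16 (TMM, quasi-likelihood test, all 6 libraries in a single model with 3 residual degrees of freedom, p-values adjusted over all genes). CPM are TMM-scaled. Floors of 3 counts cover counting error only.

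Members and gene lists were chosen with earlier results of these data known. Named with a test are 16 members fixed by name (CCNB1, CDK1, CDC25B, PLK1, AURKA, BUB1, CDC20, UBE2C, CENPF, KIF20A, TPX2, TOP2A, BIRC5, MKI67, FOXM1 and MYBL2), every member called, and in each other list the 2 largest rises and falls called. TTK, CENPA and SMC4 tests for miR-200a, and members singled out for an unadjusted p, an overlap or a gap between replicates, were chosen after their values were seen. Alternatives were 2 other filters, upper-quartile scaling, DESeq2 1.42.0, limma 3.58.1, models of the 2 compared groups, the replicate number as a block, and leaving out each library. The scripts were tested on simulated data. Positions and 3′UTRs come from GENCODE 29 (GRCh38), and miRNA and promoter sequences from RefSeq tables (GRCh38.p14). No coordinate comes from the count data. A list of mitochondrial transcripts had no matching symbol and was not analysed here.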

Additional observations from a re-analysis of the deposited data

How the results depend on the processing

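With miR-200a against the NC mimic, 0 members passed in all alternatives run, and the median log2 fold change stayed negative. Against miR-200a (9 called), 0 members passed by limma and 3 with a model of the 2 compared groups alone. With the replicate number as a block (replicate block) 5 passed. Of all genes, 0.846%, 4.38% and 9.15% passed in these fits, against 0%, 5.88% and 9.8% of the members. The medians were 0.19 under upper-quartile scaling and 0.18 by limma. Leaving out each library gave 0 to 28 calls and medians from 0.20 to 0.27. Against the NC mimic (5 called), 10 passed without the filter, 3 under upper-quartile scaling, 3 by DESeq2 and 0 by limma. With only the 2 groups 0 passed, and with the replicate block 1. Of all genes, 13.5%, 12.5%, 10.8%, 3.09%, 4.79% and 9.25% passed in these fits, in the same order. The medians were 0.099 under upper-quartile scaling and 0.11 by limma. Leaving out each library gave 0 to 29 calls. Upper-quartile scaling also moved the split of all called genes from 889 higher and 748 lower to 622 and 882 against miR-200a, and from 876 and 753 to 677 and 902 against the NC mimic. Signs reversed only in named members that had not passed. For miR-200a against the NC mimic, BUB1 was 0.0065 without the filter, 0.011 by limma and 0.021 with only the 2 groups, and TOP2A was 0.0017 without the filter and 0.062 by limma. CDK1 against miR-200a was -0.023 under upper-quartile scaling and -0.041 by limma. In leave-one-out fits, signs also reversed. For miR-200a against NC mimic the ranges were -0.34 to 0.35 for BUB1, -0.047 to 0.22 for CDC20, -0.080 to 0.23 for CDC25B, -0.079 to 0.040 for TOP2A and -0.19 to 0.020 for UBE2C. Against miR-200a they were -0.18 to 0.040 for BUB1, -0.13 to 0.17 for CDK1 and -0.10 to 0.53 for MYBL2. Against NC mimic they were -0.39 to 0.30 for BUB1, -0.24 to 0.063 for CDK1 and -0.027 to 0.15 for CENPF. The cause of each change was not tested. Leaving out a library leaves fewer samples, and leaving out an ELK3-labelled library also removes the pair with the widest spread. Same-numbered libraries had correlations of deviations of -0.0029, -0.036 and -0.11 across genes. With 2 libraries a group, these values cannot tell whether same-numbered libraries share a culture or a preparation. The 3 residual degrees of freedom and the 2 unlike libraries labelled miR-200a plus ELK3 limit what can be called.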
